A study of Mus musculus with 26 samples.

Results

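The globin genes encode the protein chains of haemoglobin, and 6 of them are described here, the embryonic genes Hbb-bh1, Hbb-y and Hba-x and the adult genes Hbb-b1, Hba-a1 and Hba-a2. They were chosen by symbol, as the probe sets that carry a single symbol among these 6, out of 21572 genes with such a probe set. The rule found 20 probe sets for 4 of the 6 genes, 7 for Hbb-bh1, 4 for Hbb-y, 5 for Hba-x and 4 for Hbb-b1, and 0 for Hba-a1 and Hba-a2. A further 17 probe sets carry several symbols, 10 of them Hba-a1 with Hba-a2 and 7 Hbb-b1 with Hbb-b2, and these are given apart as the shared adult alpha and shared adult beta probe sets. A gene value is the median over the brighter 50% of its probe sets by their mean over 26 arrays, on the log2 scale of the deposited values, where a difference of 1 is a doubling.

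The series holds 26 Affymetrix Mouse Exon 1.0 ST arrays of mouse samples titled ES1 to ES26, each labelled as an embryoid body sample by its tissue tag. Embryoid bodies are clusters that embryonic stem cells form as they differentiate. ES1 to ES14 are labelled with the strain 129S2/SvPas (14 arrays) and ES15 to ES26 with C57BL/6 (12 arrays), and strain is the one grouping the labels give. No genotype, treatment, time, cell line or batch is labelled, and nothing says that samples came from separate cultures. The p-values thus measure the spread between these samples alone, which may be technical and also holds differences between unlike arrays of a label. Values are therefore described over 5 runs of titles, ES1 to ES12, ES13 with ES14, ES15 to ES20, ES21 to ES24 and ES25 with ES26. These runs are no groups of the labels, were drawn with earlier results in view, and are compared without a test.

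The runs differed widely in markers, and ES13 and ES14 stood apart from the other arrays of their strain label. The mean level of 9 neutrophil markers was 11.18 to 12.29 in ES1 to ES12, and 5.60 to 5.70 in ES13 and ES14. It was 5.13 to 6.11 in ES15 to ES26. The mean level of 6 naive pluripotency markers was 10.71 to 11.13 in ES21 to ES24 and 8.44 or less elsewhere. The mean level of 5 measured erythroid markers (Alas2, Slc4a1, Klf1, Gata1 and Epor) was 5.68 to 6.23 in ES1 to ES12 and 6.58 to 8.19 in ES13 and ES14. It was 8.35 to 10.61 in ES15 to ES20, 5.75 to 5.98 in ES21 to ES24 and 5.49 to 5.51 in ES25 and ES26. In such bulk samples, fewer cells of a type and less RNA per cell cannot be told apart.

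A haemoglobin molecule joins alpha-type with beta-type chains around haem. In the mouse, the first red cells of the yolk sac make embryonic chains, Hba-x of the alpha type and Hbb-bh1 and Hbb-y of the beta type, and definitive red cells from the fetal liver and later the bone marrow make adult chains. As primitive red cells mature, the ratio of their beta-type RNAs is known to shift from Hbb-bh1 towards Hbb-y, and adult alpha chains are made beside Hba-x from early on.

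Promoter windows are described for the members that had one in the reference used, and those of the adult alpha genes show how alike the pair is. The windows are the 250 bases before the gene start in RefSeq on build GRCm38.p6. Of the 6 genes, 4 matched (Hbb-y, Hba-x, Hba-a1 and Hba-a2), and Hbb-bh1 and Hbb-b1 did not. Capitals mark matches to CCACCC, to the common promoter box CCAAT to the start site motif TATAAA and to motifs of GATA factors.
Hbb-y, chr7:103853208-103853457, minus strand: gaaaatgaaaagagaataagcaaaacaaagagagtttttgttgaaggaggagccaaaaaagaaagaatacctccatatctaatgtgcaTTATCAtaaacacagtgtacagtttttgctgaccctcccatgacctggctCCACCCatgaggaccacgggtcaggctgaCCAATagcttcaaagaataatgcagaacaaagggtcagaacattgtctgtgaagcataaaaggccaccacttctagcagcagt
Hba-x, chr11:32276350-32276599, plus strand: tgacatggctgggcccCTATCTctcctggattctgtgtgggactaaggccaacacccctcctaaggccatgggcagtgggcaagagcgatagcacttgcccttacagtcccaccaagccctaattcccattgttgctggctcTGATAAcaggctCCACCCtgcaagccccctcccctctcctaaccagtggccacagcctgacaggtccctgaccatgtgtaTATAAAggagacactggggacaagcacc
Hba-a1, chr11:32283422-32283671, plus strand: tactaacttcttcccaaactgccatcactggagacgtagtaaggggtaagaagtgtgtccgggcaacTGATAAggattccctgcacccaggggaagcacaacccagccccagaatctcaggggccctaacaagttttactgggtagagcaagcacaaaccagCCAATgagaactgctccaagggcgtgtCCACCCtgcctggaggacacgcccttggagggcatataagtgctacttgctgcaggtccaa
The 300-base windows of Hba-a1 and Hba-a2, which run 50 bases past the start, share an unbroken run of 297 identical bases. Motifs were searched as plain letters on both strands and did not overlap each other. CCACCC, bound by Kruppel-like factors, was found in all 4 windows, starting 112 bases before the gene start in Hbb-y, 96 in Hba-x, 61 in Hba-a1 and 64 in Hba-a2. It was present in 28.1% of 32851 windows of that length. CCAAT was found in Hbb-y, Hba-a1 and Hba-a2, starting 83, 88 and 91 bases before the gene start, and in 33.8% of windows. TATAAA was found in Hba-x, 28 bases before the start, and in 12.4% of windows. Factors such as the erythroid Gata1 have a motif that was searched in 4 spellings, of which 3 were added after these sequences were read. The spelling AGATAA had no match here and was in 10.0% of windows. TGATAA was found in all 4 windows, starting 108 bases before the gene start in Hba-x, 183 in Hba-a1, 186 in Hba-a2 and, on the other strand, 162 in Hbb-y, and in 7.9% of windows. The spelling AGATAG was found on the other strand of Hba-x, starting 234 bases before the gene start, and in 7.7% of windows. The spelling TGATAG had no match here and was in 6.4% of windows. Any of the 4 spellings was present in 26.5% of windows, and whether a factor binds at a match was not tested.

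The embryonic beta-type gene Hbb-bh1 was high in ES13 to ES20 and low in every other array. It was 12.57 in ES15, 12.67 in ES16, 12.13 in ES17, 11.61 in ES18, 10.80 in ES19 and 9.74 in ES20, and 7.10 in ES13 and 10.67 in ES14. It lay between 3.34 and 4.25 in ES21 to ES24, was 2.82 in ES25 and 3.86 in ES26, and lay between 2.90 and 4.04 (median 3.53) in ES1 to ES12. The ES15 to ES20 and the ES13 and ES14 values overlapped, since ES14 exceeded ES20, and both runs were apart from the rest. The 3 low runs overlapped each other. Its value exceeded that of 88.4 to 99.8% of genes in ES15 to ES20 and of 3.5 to 13.6% of genes in the low arrays.

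Hbb-y, the other embryonic beta-type gene, had a narrower spread among the high arrays and did not stand out in ES13. It was 13.47 in ES15, 13.84 in ES16, 13.71 in ES17, 13.66 in ES18, 13.44 in ES19 and 12.90 in ES20, and 6.77 in ES13 and 11.44 in ES14. It lay between 6.40 and 7.42 in ES21 to ES24, was 6.19 in ES25 and 6.45 in ES26, and lay between 5.81 and 7.52 (median 6.16) in ES1 to ES12. ES15 to ES20 were apart from every other array, and ES13 lay inside the range of ES21 to ES24. In ES15 to ES20 Hbb-y exceeded at least 99.9% of genes. Its probe sets of rank 1, 2 and 3 were at 13.99, 13.69 and 13.32 in ES16 and at 13.25, 12.54 and 12.03 in ES20. The dimmest, of rank 4, was at 10.26 and 8.20, a wider step. Whether the brightness limit of the array narrowed the spread of the Hbb-y value was not tested. The highest value among ES1 to ES12, 7.52, was that of ES12.

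Hba-x, the embryonic alpha-type gene, followed Hbb-bh1 in which arrays were highest. It was 12.70 in ES15, 13.06 in ES16, 12.83 in ES17, 12.58 in ES18, 11.88 in ES19 and 10.66 in ES20, and 8.66 in ES13 and 10.81 in ES14. It lay between 7.15 and 8.05 in ES21 to ES24, was 6.63 in ES25 and 7.15 in ES26, and lay between 6.44 and 7.09 (median 6.65) in ES1 to ES12. By gene value, ES13 and ES14 were above the low runs, and ES20 was just below ES14. The gene value follows different probe sets in different arrays, so this order is not that of every probe set. In ES13 it was the value of the rank 1 probe set, which was 8.55 to 9.04 in ES21 to ES24. ES20 was above ES14 in the probe sets of rank 2 (13.26 and 13.10), rank 4 (12.64 and 12.40) and rank 5 (9.54 and 9.13). It was below ES14 in those of rank 1 (9.82 and 10.56) and rank 3 (10.66 and 10.81). The brightest Hba-x probe set had a range of 3.94 over the arrays and the other 4 had ranges from 6.93 to 9.13, while the gene value had a range of 6.62.

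Hbb-b1, an adult beta gene, had another pattern, with high values in ES1 to ES12 as well as in ES15 to ES20. It lay between 7.96 (ES4) and 12.55 (ES11) in ES1 to ES12, with a median of 10.50. In ES15 to ES20 it was 9.50, 10.29, 10.20, 10.20, 10.75 and 10.86 in title order. ES13 had 4.51 and ES14 had 6.54. It lay between 4.53 and 4.87 in ES21 to ES24 and was 3.93 in ES25 and 4.92 in ES26. ES1 to ES12 and ES15 to ES20 overlapped each other, and both were apart from the remaining arrays. The 6 arrays ES15 to ES20 spanned a narrower range (SD 0.48) than ES1 to ES12 (SD 1.53).

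The shared adult beta probe sets, of Hbb-b1 and Hbb-b2, were also high in both runs. They were 11.97 in ES15, 12.55 in ES16, 12.54 in ES17, 12.62 in ES18, 12.77 in ES19 and 12.87 in ES20, and lay between 8.34 and 12.42 (median 10.53) in ES1 to ES12. They were 6.33 in ES13 and 9.19 in ES14, between 5.53 and 6.62 in ES21 to ES24, and 5.03 and 5.57 in ES25 and ES26. ES14 fell within the range of ES1 to ES12, which was not so for Hbb-b1 itself.

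The shared adult alpha probe sets, of Hba-a1 and Hba-a2, were high where the embryonic genes were high and not in ES1 to ES12. They lay between 13.19 (ES19) and 13.43 (ES16) in ES15 to ES20 with an SD of 0.09, the narrowest of the 6 profiles there, and exceeded at least 99.9% of genes in these arrays. They were 7.99 in ES13 and 11.86 in ES14, between 6.68 and 7.15 in ES21 to ES24, and 6.57 and 6.71 in ES25 and ES26. In ES1 to ES12 they lay between 6.58 and 8.33 (median 7.40), which overlapped ES21 to ES24. That SD belongs to the value over the brighter probe sets. Every shared adult alpha probe set was lower in ES20 than in ES16, by unlike steps. Those of rank 1, 2, 4 and 5 were at 14.03, 13.53, 13.36 and 13.26 in ES16 and at 13.62, 12.98, 13.18 and 13.21 in ES20. The dimmer ones of rank 7 and 8 were at 12.49 and 13.32 in ES16 and at 11.74 and 12.69 in ES20. Whether the brightness limit of the array narrowed the spread in ES15 to ES20 was not tested.

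**Figure D1:**
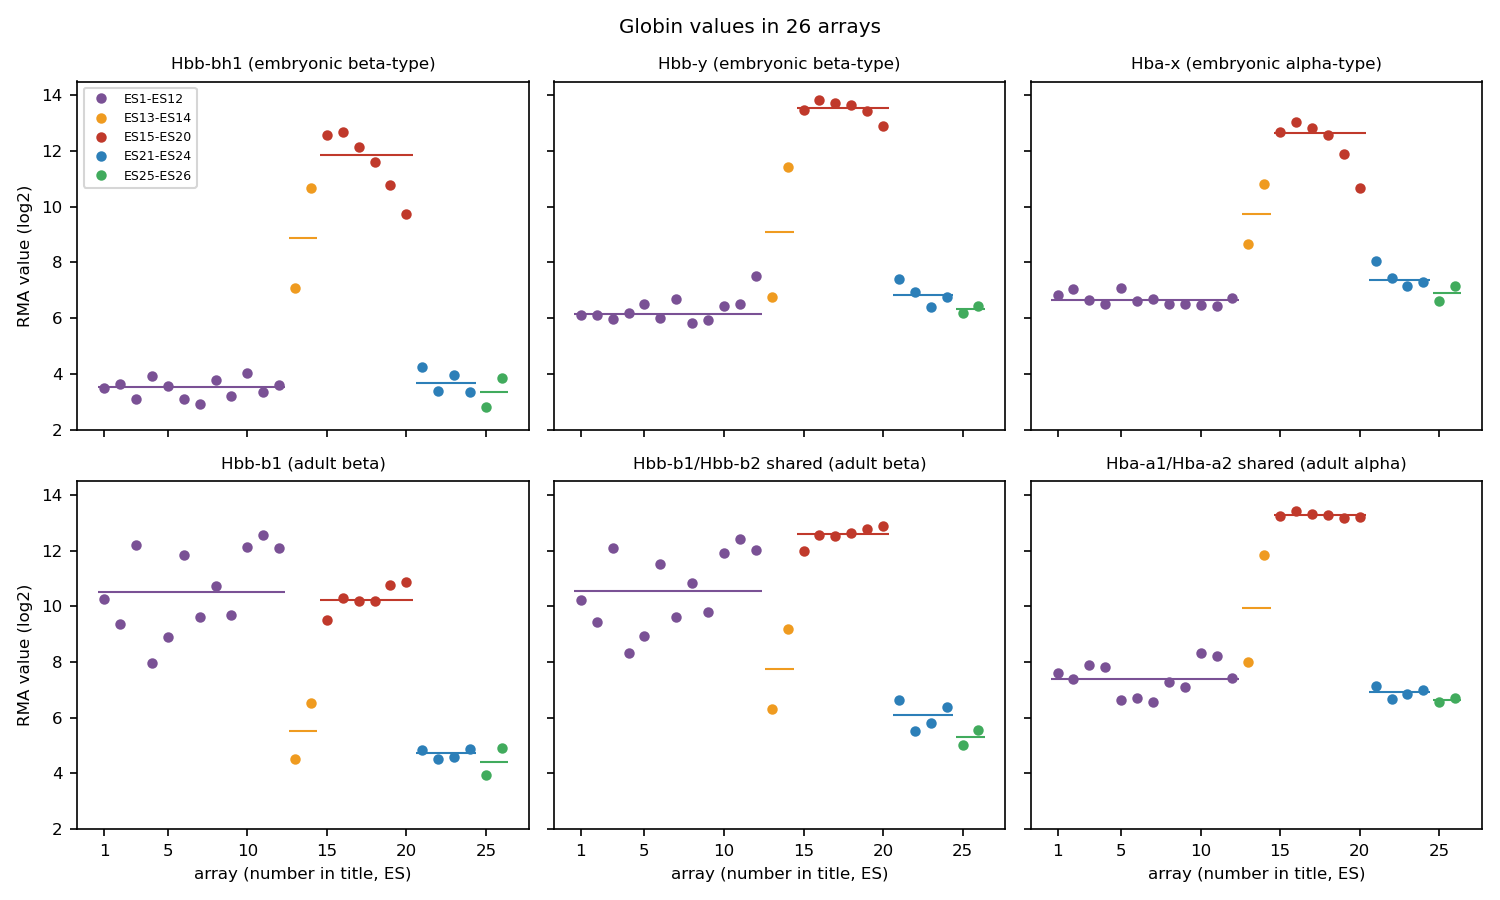
RMA values (log2, vertical axis) of 4 globin genes and of the 2 sets of shared probe sets in each of 26 arrays, in title order on the horizontal axis, with 1 point per array and a line at each run's median. Embryonic genes and the shared alpha probe sets are high in ES14 to ES20, and the adult beta probe sets are high in ES1 to ES12 as well, where Hbb-b1 spans 7.96 to 12.55.

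In ES1 to ES12 the adult beta profiles stood apart from the embryonic and adult alpha profiles. Relative to each profile's own median in ES21 to ES24, the ES1 to ES12 medians were higher by 5.78 for Hbb-b1, by 4.43 for the shared adult beta probe sets and by 0.47 for the shared adult alpha probe sets. For the embryonic genes they differed by -0.14 for Hbb-bh1, -0.68 for Hbb-y and -0.72 for Hba-x. In ES15 to ES20 the same medians were higher by 8.20 for Hbb-bh1, 6.72 for Hbb-y, 5.27 for Hba-x, 5.52 for Hbb-b1, 6.48 for shared adult beta and 6.34 for shared adult alpha. The difference of shared alpha minus shared beta within an array lay between 0.34 and 1.29 in ES15 to ES20 and between 0.53 and 1.16 in ES21 to ES24, against -4.84 to -0.52 in ES1 to ES12. Of the 5 measured erythroid markers, Gata1 was 6.43 to 8.17 in ES1 to ES12, above the 5.81 to 6.23 of ES21 to ES24, against 8.15 to 10.33 in ES15 to ES20. Alas2, the red cell enzyme of the first step of haem synthesis, was 4.68 to 5.79 in ES1 to ES12, Slc4a1 5.40 to 6.51, Klf1 4.92 to 5.94 and Epor 5.64 to 6.29, and the ranges of these 4 overlapped those of ES21 to ES24. The mean level of the 18 erythroid transcription factor genes was 8.63 to 8.98 in ES1 to ES12, 8.19 to 9.21 in ES15 to ES20 and 7.09 to 7.36 in ES21 to ES24. The members behind this mean differed between the runs. Myb, Ikzf1, Lyl1 and Runx1 had medians of 10.77, 10.22, 10.58 and 10.56 in ES1 to ES12 and 6.56, 7.82, 8.71 and 9.28 in ES15 to ES20. Gata1, Klf1 and Zfpm1 had medians of 7.14, 5.47 and 7.72 in ES1 to ES12 and 9.36, 8.41 and 10.37 in ES15 to ES20. In ES11 and ES4, the arrays with the highest and lowest Hbb-b1 of that run, the mean erythroid marker level was 6.10 and 5.68, that of the neutrophil markers 11.89 and 12.29, that of the macrophage markers 10.35 and 10.27 and that of the megakaryocyte markers 7.63 and 7.27. Other arrays of the run did not keep this order. ES9, with Hbb-b1 at 9.68, had 6.18 for erythroid and 8.37 for megakaryocyte markers, and ES6, with Hbb-b1 at 11.86, had 5.92 and 7.56. The part of these cell types in the Hbb-b1 values was not tested.

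Among ES13 to ES20 the globins did not differ from their ES21 to ES24 medians by the same amount. In ES13, Hbb-bh1 was 3.43 above its ES21 to ES24 median, Hba-x 1.28 and shared adult alpha 1.07, while Hbb-y was at -0.07, Hbb-b1 at -0.22 and shared adult beta at 0.23. The Hba-x amounts here and below rest on a gene value that follows different probe sets in different arrays. In ES14 the differences were 7.00 for Hbb-bh1, 4.93 for shared adult alpha, 4.60 for Hbb-y, 3.43 for Hba-x, 3.09 for shared adult beta and 1.81 for Hbb-b1. In ES16, where the embryonic genes and shared adult alpha were highest, they were 9.00 for Hbb-bh1, 7.00 for Hbb-y, 5.68 for Hba-x, 6.50 for shared adult alpha and 5.56 for Hbb-b1. In ES20 they were 6.07 for Hbb-bh1, 6.05 for Hbb-y, 3.28 for Hba-x, 6.28 for shared adult alpha and 6.13 for Hbb-b1. Set against ES16, ES20 was therefore lower in all 3 embryonic genes, most in Hbb-bh1, and higher in Hbb-b1. Marker lists differed between the same arrays, with a mean level in ES20 of 8.35 for erythroid, 8.52 for macrophage, 8.39 for visceral endoderm and 11.64 for fibroblast markers, against 10.61, 6.63, 6.89 and 10.36 in ES16, and their part in the globin differences was not tested. The labels give no time for any array, so the titles are no time course.

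**Figure D2:**
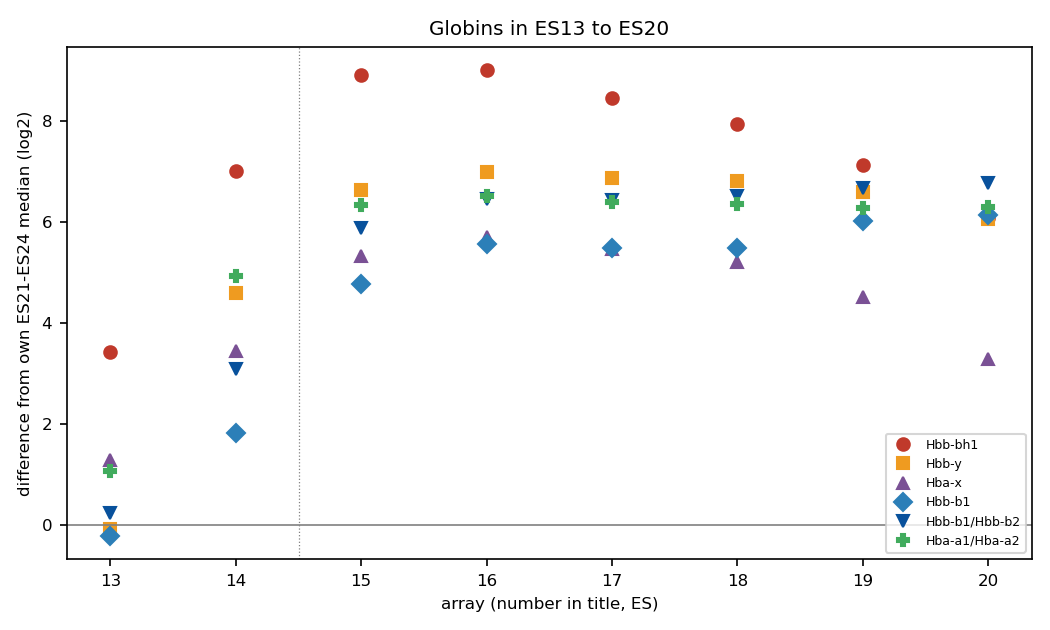
Difference of each globin profile from its own median over ES21 to ES24 (log2, vertical axis) in arrays ES13 to ES20 (horizontal axis), 1 marker per profile and array, with a dotted line between ES14 and ES15. Hbb-bh1 is at 9.00 in ES16 and 6.07 in ES20, and Hbb-b1 at 5.56 and 6.13.

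In 16 of 16 embryonic and 10 of 10 shared adult alpha probe sets, every array of ES15 to ES20 was above all of ES21 to ES26, as in 4.47% of all probe sets, and above all of ES1 to ES12, as in 7.25%. Both adult beta probe sets of rank 1 and 2 and 6 of 7 shared adult beta probe sets had every array of ES1 to ES12 above all of ES21 to ES26, as in 5.70% of all probe sets. Single probe sets also kept an order within ES15 to ES20. Of 16 embryonic probe sets, 16 were highest in ES15 or ES16, as were 38.2% of all 631748 probe sets, and 15 were lowest in ES20, as were 18.2% of all. ES15 minus ES20 was positive in all 16, from 0.39 to 5.41, and largest among the 7 Hbb-bh1 probe sets (1.94 to 5.41) against 0.39 to 1.61 for Hbb-y and 0.56 to 2.24 for Hba-x. All 7 shared adult beta probe sets were lowest in ES15, as were 21.0% of all probe sets, with ES15 minus ES20 from -2.81 to -0.80. Of the 10 shared adult alpha probe sets, 9 were highest in ES15 or ES16 and 7 were lowest in ES20, so this order was not particular to the embryonic genes. Their ES15 minus ES20 was -0.01 to 0.46. Probe sets of a gene share RNA and arrays and are no replicates.

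**Figure D3:**
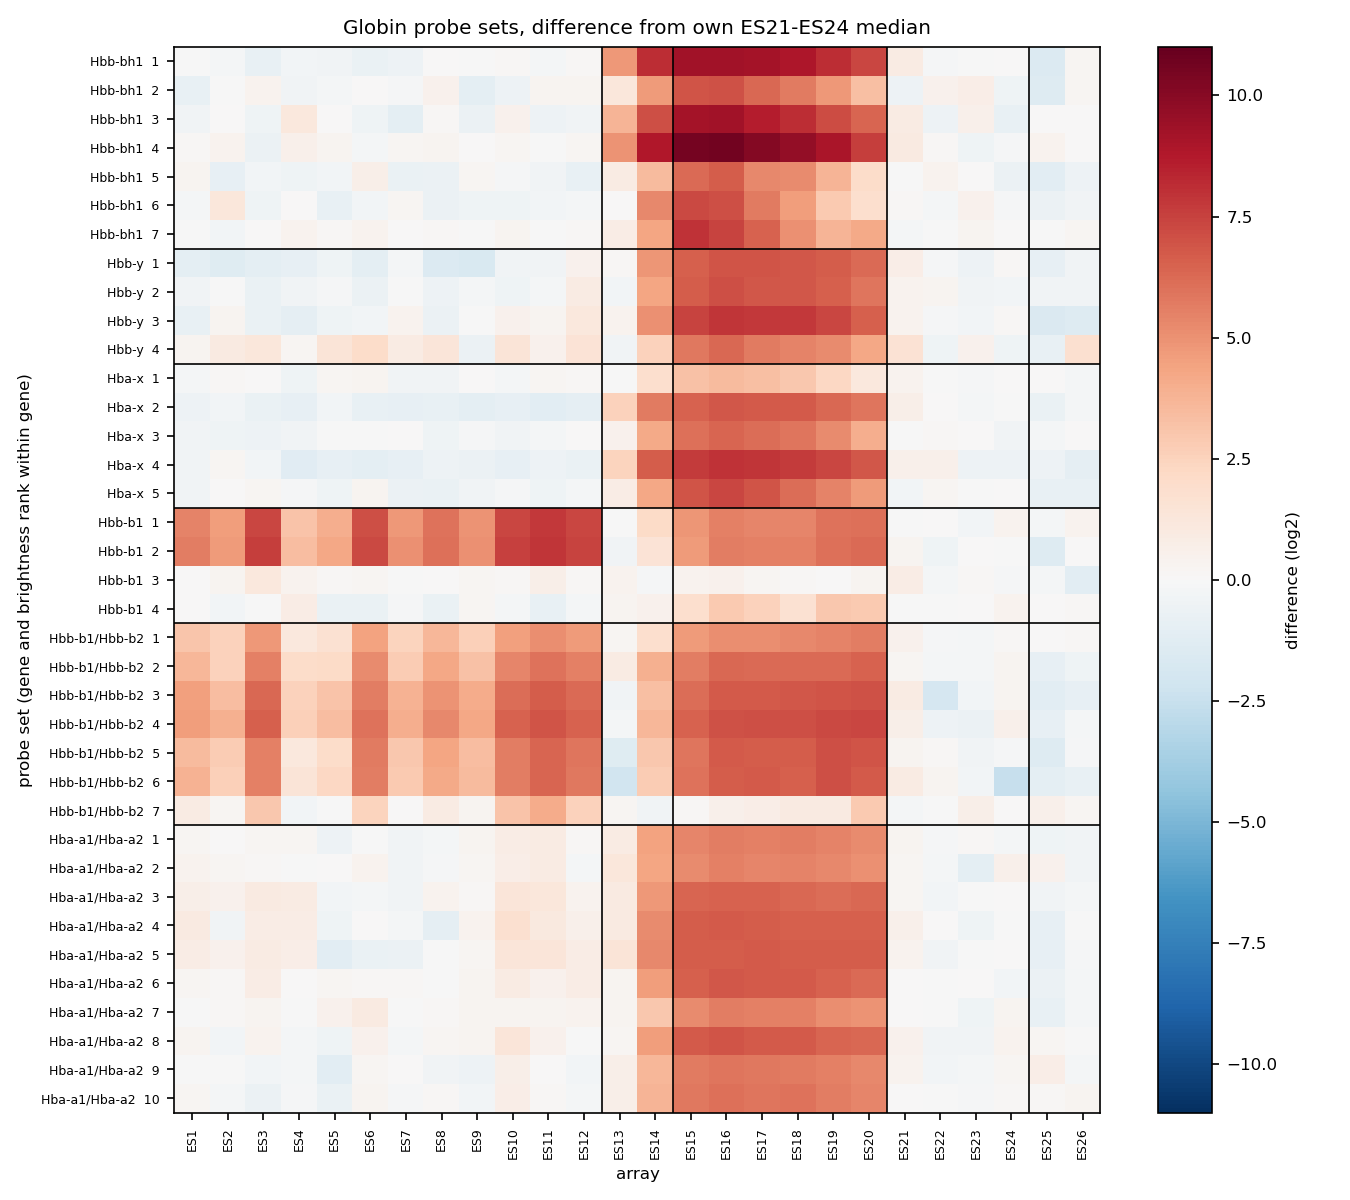
Heat map of 37 globin probe sets (rows, by gene and by brightness rank within the gene) in 26 arrays (columns), coloured by the difference from the probe set's own median over ES21 to ES24 (log2, red higher, blue lower), with lines between genes and between runs. Adult beta probe sets of rank 1 and 2 are red in ES1 to ES12 and ES15 to ES20, and the 16 embryonic and 10 alpha rows are red in ES14 to ES20.

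Signal shared between paralogs was checked in arrays where only some globins were high. In ES1 to ES12, with Hbb-b1 at 7.96 to 12.55, the median of each of the 16 embryonic probe sets differed from its ES21 to ES24 median by -0.99 to 1.12, while the Hbb-b1 gene value differed by 5.78. The highest of these, 1.12, was the dimmest Hbb-y probe set. In ES13, with Hbb-bh1 at 7.10, 6 of 7 Hbb-bh1 probe sets, 4 of 5 Hba-x probe sets and 8 of 10 shared alpha probe sets were above all of ES21 to ES26, against 1 of 4 Hbb-y, 0 of 4 Hbb-b1 and 1 of 7 shared adult beta probe sets, and 15.9% of all probe sets. In ES15 to ES20 all globins were high at once, so own and paralog signal cannot be told apart there.

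The 4 Hbb-b1 probe sets did not agree. The probe sets of rank 1 and 2 were at 7.86 to 12.61 in ES1 to ES12. That of rank 3 had a range of 2.26 over all 26 arrays, around a mean of 4.61. That of rank 4 was 4.38 to 5.61 in ES15 to ES20 and 1.83 to 3.52 in ES1 to ES12, so it was high in the second of the runs in which its gene was high and not in the first. Its profile, with each profile's own mean subtracted, differed from that of its gene by a root mean square of 2.94. It differed from that of Hba-x by 1.45 and from that of shared adult alpha by 1.69. This measure is not scaled for range, and the rank 3 probe set was also nearer to Hba-x (2.36) than to its gene (2.70). Whether RNA of other globins reached these probe sets was not tested. Among the shared adult beta probe sets, that of rank 7 was 3.47 to 6.28 in ES15 to ES20, with 6.28 in ES20, and 3.09 to 7.45 in ES1 to ES12. The other 6 differed from the Hbb-b1 profile by a root mean square of 1.00 to 1.32.

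The step between ES1 to ES12 and ES15 to ES20 depended on which adult beta probe sets were read. The shared value minus the Hbb-b1 value lay between 2.01 and 2.47 in ES15 to ES20 and between -0.33 and 0.38 in ES1 to ES12. It was 1.82 in ES13 and 2.66 in ES14, which carry the same strain label as ES1 to ES12. In ES13 both values were low, with Hbb-b1 at 4.51 and the shared value at 6.33. The difference was 1.00 to 1.77 in ES21 to ES24, where both were also low. Hbb-b1 and Hbb-b2 name the adult beta genes of a haplotype other than that of the C57BL/6J reference, whose adult beta genes are Hbb-bs and Hbb-bt. The part of the haplotype, of Hbb-b2 RNA and of embryonic RNA in this difference was not tested.

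**Figure D4:**
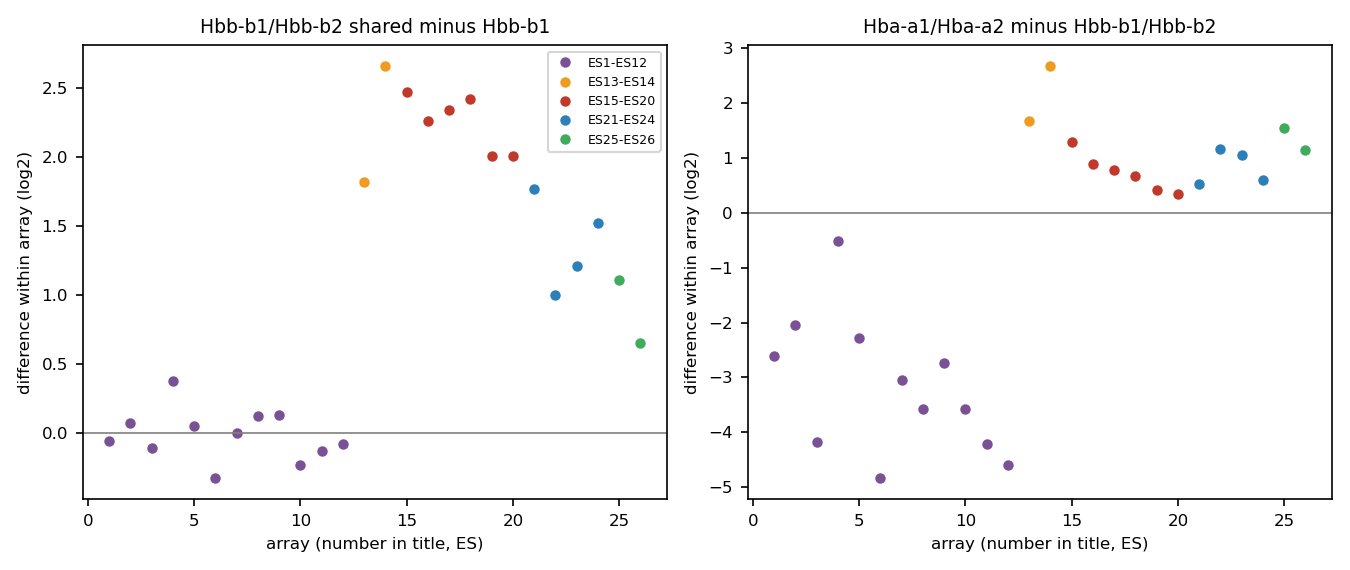
Differences within an array (log2, vertical axis) for 26 arrays in title order (horizontal axis), 1 point per array coloured by run, of the shared adult beta minus the Hbb-b1 value (left) and of the shared adult alpha minus the shared adult beta value (right). On the left ES15 to ES20 lie at 2.01 to 2.47 and ES1 to ES12 at -0.33 to 0.38, and on the right ES1 to ES12 lie below 0.

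Between the strain labels, the 3 embryonic genes were lower in arrays labelled 129S2/SvPas and Hbb-b1 did not pass the threshold. The test was limma on all 21572 genes, two-sided, with Benjamini-Hochberg adjusted p under 0.05 taken as passing, and 38.6% of all genes passed, 19.2% higher and 19.4% lower. Hbb-bh1 averaged 4.25 ± 2.11 (SD, n = 14) in arrays labelled 129S2/SvPas and 7.59 ± 4.25 (SD, n = 12) in arrays labelled C57BL/6, a difference of -3.35 ± 1.21 (SE, limma adjusted p = 0.0292). Hbb-y averaged 6.71 ± 1.43 and 10.10 ± 3.58 in the same order, a difference of -3.38 ± 0.98 (limma adjusted p = 0.00699). Hba-x averaged 7.11 ± 1.20 and 9.79 ± 2.70, a difference of -2.67 ± 0.75 (limma adjusted p = 0.00566). Hbb-b1 averaged 9.89 ± 2.36 and 7.46 ± 3.00, a difference of 2.43 ± 0.99 (limma adjusted p = 0.0531). Each label holds unlike runs. The mean of Hbb-bh1 was 11.58 in ES15 to ES20 and 3.73 in ES21 to ES24, and 8.88 in ES13 and ES14 against 3.47 in ES1 to ES12. The SDs and p-values therefore include differences between runs, and strain and run cannot be told apart.

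In a fit that added the shared probe sets, shared adult alpha averaged 7.77 ± 1.31 in arrays labelled 129S2/SvPas and 10.05 ± 3.37 in arrays labelled C57BL/6 and was lower, with a difference of -2.28 ± 0.92 (SE, limma adjusted p = 0.0499). Shared adult beta averaged 10.19 ± 1.73 and 9.19 ± 3.54 and differed by 1.00 ± 1.01 (limma adjusted p = 0.469). Of the 37 globin probe sets, 24 were lower and 0 higher, where 28.8% of all probe sets passed, 14.6% lower and 14.2% higher. The 24 were 6 of 7 for Hbb-bh1, 4 of 4 for Hbb-y, 5 of 5 for Hba-x, 8 of 10 for shared adult alpha and 1 of 4 for Hbb-b1, the last being the rank 4 probe set at -1.43. The rank 4 probe set is described above, and its profile differed from that of its gene.

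The call of Hbb-bh1 was lost without any 1 of ES15, ES16, ES17, ES18 or ES19, with limma adjusted p of 0.0586, 0.0592, 0.0576, 0.056 and 0.053. Without ES13 and ES14 all 4 genes passed, with differences of -4.12 for Hbb-bh1, -3.78 for Hbb-y, -3.11 for Hba-x and 3.15 for Hbb-b1 (limma adjusted p between 0.000788 and 0.00499), beside 45.4% of all genes, 23.1% higher and 22.3% lower. Without ES1 to ES12 none of the 4 passed, and the sign turned for Hbb-bh1 (1.29) and Hbb-b1 (-1.94), while Hbb-y was at -0.99 and Hba-x at -0.06 (limma adjusted p between 0.833 and 0.996, beside 0.00464% of genes passing). Shared adult alpha was then at -0.13 (limma adjusted p = 0.993) and shared adult beta at -1.43 (limma adjusted p = 0.908).

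The genes whose profiles over the 26 arrays lay nearest to the embryonic globins included several red cell genes. Likeness was the root mean square difference of values with each gene's mean subtracted, over 26 arrays that share their preparation. It was ranked among 16691 genes with at least 4 probe sets and no provisional name, the globins described here left out. For Hba-x the nearest were Alas2 (0.48), the red cell anion exchanger gene Slc4a1 (0.66), the Rh-associated glycoprotein gene Rhag (0.73), the desmosomal cadherin gene Dsc2 (0.75) and the T-box gene Tbx4 (0.78), where the median over all genes was 2.41. For Hbb-y they were Igfbp5 and Alas2 (0.97 each), Capn6 (1.10), Slc4a1 (1.14) and Igf2 (1.15), against a median of 3.09. For Hbb-bh1 they were Capn6 (1.14), Alas2 (1.42), the growth factor gene Igf2 (1.45), the endothelial and blood precursor receptor gene Kdr (1.51) and Igfbp5 (1.62), against a median of 3.60. The shared adult alpha probe sets were nearest to Alas2 (0.84), Tspan18 (0.91), Slc4a1 (0.92), Igfbp5 (0.93) and Rhag (0.95), with a median of 2.69.

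For Hbb-b1 the nearest genes were other ones, Ctla2a (0.97), the sialyltransferase gene St8sia4 (1.09), pleckstrin (Plek, 1.11), the blood cell regulator of G protein signalling Rgs18 (1.12) and Ctla2b (1.22), with a median of 2.86. For shared adult beta they were Ctla2a (1.23), Ctla2b (1.28), the platelet factor gene Pf4 (1.30), the thrombin receptor gene F2rl2 (1.31) and the purine receptor gene P2ry1 (1.38). Among the globins, the same measure was 0.98 between Hbb-bh1 and Hbb-y, 0.89 between Hbb-y and Hba-x, 1.29 between Hbb-bh1 and Hba-x and 0.78 between Hbb-y and shared adult alpha. It was 3.51 to 4.22 between Hbb-b1 and the 3 embryonic genes, and 1.02 between Hbb-b1 and shared adult beta.

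The other genes of the red cell programme were taken from a list of 85 genes in 5 sublists, of which 73 had a probe set of a single symbol. Between the strain labels 15 of the 73 were higher and 30 lower in arrays labelled 129S2/SvPas, with a median difference of -0.31, where 19.2% and 19.4% of all genes were higher and lower and the median was 0.01. Without ES1 to ES12 none of the 73 passed, beside 1 of all 21572 genes (0.00464%). That count therefore does not set the red cell genes apart from other genes. The runs were set side by side with no test, counting genes whose ES15 to ES20 median was at least 1 above their ES21 to ES24 median, which held for 6.15% of all genes, or at least 1 below, which held for 5.87%.

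Of the 5 other globins measured, 2 were lower in arrays labelled 129S2/SvPas and 0 higher. These were Hbq1a (-1.93 ± 0.52, SE, limma adjusted p = 0.00423) and Hbq1b (-0.68 ± 0.27, limma adjusted p = 0.0456), the theta globin genes of the alpha cluster. Hbq1a lay between 7.20 and 9.48 in ES15 to ES20, between 4.38 and 5.46 in ES21 to ES24 and between 3.84 and 4.95 in ES1 to ES12. Hbq1b lay between 7.00 and 8.54 in ES15 to ES20, between 5.91 and 6.22 in ES21 to ES24 and between 5.39 and 6.71 in ES1 to ES12. Both were highest in ES16 and lowest of the 6 in ES20, as Hba-x was. Cross-hybridisation between these paralogs was not tested. Myoglobin (Mb), the muscle oxygen store, differed by -0.10 (limma adjusted p = 0.632) and had a range of 1.42 over all arrays.

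Of 19 haem and iron genes, 4 were higher and 7 lower in arrays labelled 129S2/SvPas (median difference -0.02), and 8 were at least 1 higher in ES15 to ES20 than in ES21 to ES24 with 0 at least 1 lower. Alas2 was lower by -2.41 ± 0.76 (SE, limma adjusted p = 0.0131). Alas1, its counterpart in other cells, was higher by 2.45 ± 0.38 (limma adjusted p = 8.76e-06), with values of 11.82 to 12.69 in ES1 to ES12, against 8.55 to 9.64 in ES13 to ES26. Slc25a37, the mitochondrial iron importer, differed by 0.03 ± 0.36 (limma adjusted p = 0.953) and lay between 8.88 and 11.13 in ES15 to ES20, between 6.76 and 8.57 in ES21 to ES24 and between 9.01 and 9.89 in ES1 to ES12.

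Of 18 transcription factor genes, 8 were higher and 4 lower (median difference 0.31), and 10 were at least 1 higher in ES15 to ES20 than in ES21 to ES24. The 3 with the widest range were higher in arrays labelled 129S2/SvPas, Lmo2 by 2.73 ± 0.54, the lymphoid and myeloid factor Ikzf1 by 3.44 ± 0.52 and Nfe2 by 2.69 ± 0.59 (SE, limma adjusted p = 0.000191, 8.23e-06 and 0.000655). Lmo2, a partner of the GATA and Tal1 factors, lay between 8.95 and 10.77 in ES15 to ES20, with 10.49 in ES13 and 10.44 in ES14, against 6.33 to 7.41 in ES21 to ES24. In ES13 it was thus as high as in ES15 to ES20, while Hbb-y was at 6.77.

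Of 17 membrane and receptor genes, 1 was higher and 12 lower (median difference -1.09), and 12 were at least 1 higher in ES15 to ES20 than in ES21 to ES24 with 2 at least 1 lower. Slc4a1 was lower by -2.28 ± 0.67 and Rhag by -1.89 ± 0.67 (SE, limma adjusted p = 0.00805 and 0.0259). Slc4a1 lay between 9.98 and 11.85 in ES15 to ES20 and between 6.05 and 6.17 in ES21 to ES24. ES13 had 6.05 and ES14 had 7.90. The scavenger receptor gene Cd36, also found on macrophages and platelets, was the higher 1 (2.83 ± 0.65, limma adjusted p = 0.000931). It was 3.87 in ES15, 5.40 in ES16 and 7.60 in ES20. Within ES15 to ES20 it was thus highest where Hbb-bh1 was lowest, while over all arrays it was highest in ES1 to ES12 (6.47 to 10.90) and 3.20 to 3.35 in ES21 to ES24.

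Of 14 other red cell genes, 2 were higher and 5 lower (median difference -0.27), and 4 were at least 1 higher in ES15 to ES20 than in ES21 to ES24 with 1 at least 1 lower. Car2, a carbonic anhydrase gene, was lower by -1.74 ± 0.62 and the erythroid gene Trim10 by -1.43 ± 0.48 (SE, limma adjusted p = 0.028 and 0.02). Trim10 lay between 7.09 and 9.64 in ES15 to ES20 and between 4.77 and 6.29 in ES13, ES14 and ES21 to ES26, and was highest in ES16 and lowest of the 6 in ES20. Alox15, a lipoxygenase of reticulocytes, differed by 0.60 ± 0.43 (limma adjusted p = 0.297) and was 10.23 in ES13 and 8.66 in ES14, against 5.84 to 7.57 in ES15 to ES20.

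**Figure D5:**
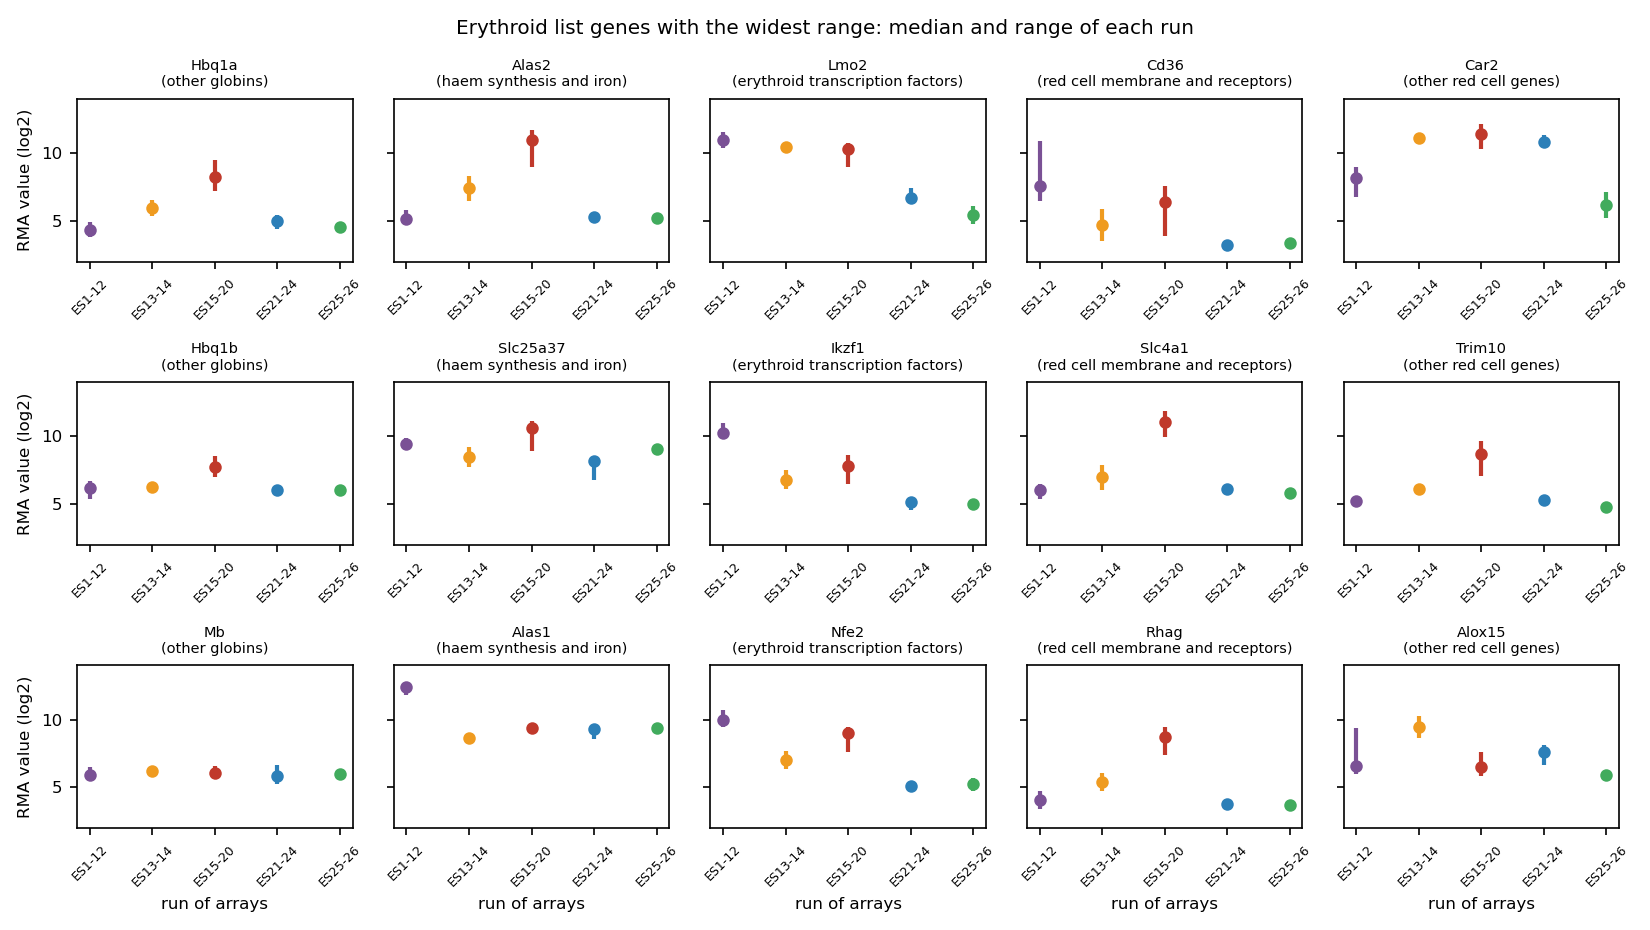
RMA values (log2, vertical axis) of the 3 genes with the widest range over 26 arrays in each of 5 erythroid sublists, with the median (point) and the lowest to highest value (bar) of each run of arrays on the horizontal axis. Alas2, Slc4a1, Rhag, Trim10 and Hbq1a are highest in ES15 to ES20, and Alas1 and Ikzf1 in ES1 to ES12.

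Mean levels of all lists of other cell types but naive pluripotency were also higher in ES15 to ES20 than in ES21 to ES24. In ES15 to ES20 the mean level was 9.06 to 9.81 for 5 endothelial markers, 7.13 to 10.12 for 5 megakaryocyte markers, 6.26 to 8.55 for 5 visceral endoderm markers, 9.17 to 11.64 for 5 fibroblast markers and 6.32 to 8.52 for 5 macrophage markers. In ES21 to ES24 it was 6.38 to 7.12, 5.64 to 6.24, 5.57 to 5.84, 8.08 to 9.16 and 5.94 to 6.15 for the same lists. For 9 neutrophil markers it was 5.71 to 6.11 in ES15 to ES20 and 5.13 to 5.55 in ES21 to ES24. Not every member was higher: the medians of Prrx1, Cd68 and Amn were 8.53, 8.50 and 7.22 in ES15 to ES20 and 9.68, 8.51 and 7.39 in ES21 to ES24. Within ES15 to ES20 the fibroblast, macrophage and visceral endoderm lists were lowest in ES15, at 9.17, 6.32 and 6.26, where Hbb-bh1 was 12.57, and were 11.64, 8.52 and 8.39 in ES20, where Hbb-bh1 was 9.74. The megakaryocyte, naive pluripotency and neutrophil lists were also lowest in ES15, at 7.13, 7.11 and 5.71, and were 9.51, 8.44 and 6.09 in ES20. The endothelial list was 9.28 in ES15 and 9.06 in ES20. Some members went against their list, such as the fibroblast marker Prrx1 (8.48 in ES15, 7.99 in ES20) and the visceral endoderm marker Amn (7.65 and 7.11). The fibroblast list was also at 9.98 to 10.75 in ES25 and ES26, where Hbb-bh1 was 3.86 or less. The part of these cell types in the globin values was not tested.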

How the data were processed

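Per the labels' protocols and the series' design text, RNA was isolated, freed of DNA, amplified in 2 rounds and hybridised to Affymetrix Mouse Exon 1.0 ST arrays. The deposited values are log2 RMA values per probe set which the authors made with Affymetrix Expression Console in what they call an extended-exon analysis, per the labels and the submitters' processing notes. RMA adjusts background, equalises arrays and combines probes into 1 value per probe set. The software version and the genome build are not given in the sources used here. The log base was taken from RMA convention and the range of values, 0.831 to 15.6. The table held 631748 probe sets and 0 missing values, and no 2 arrays were identical. Array medians lay between 5.32 and 5.51. Precision is limited by the number of arrays. Saturation and background flags of single probes were not used here.

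Symbols came from the platform annotation, updated to RefSeq symbols of GRCm38.p6 through unique synonyms. The annotation named 306069 probe sets with a single symbol (48.4%) and 6067 with several. All 21572 genes with at least 1 single-symbol probe set (median 11) were tested, so that no measured globin was lost. limma 3.58.1 in R 4.3.3 was used (lmFit, eBayes with a trend, two-sided, Benjamini-Hochberg over all features) for 129S2/SvPas minus C57BL/6. In a test on simulated data with 50 changed genes per size, 40% were recovered at a change of 0.5 log2 units, 80% at 1, 96% at 2 and 100% at 4, with 7 false calls among 21572 genes. The rate of recovery and of false calls in the deposited arrays, where each label holds unlike runs, was not tested. Named genes were all members, the 5 nearest genes of each profile with a range of at least 4 log2 units (shared probe sets included, which the rule as written did not name), and the 3 list genes per sublist with the widest range. Genes the text names beyond these, such as single markers, were chosen after their values were seen. Members, runs and lists were chosen with earlier results of these data known.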

Additional observations from a re-analysis of the deposited data

Results flagged for a closer look

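The shared adult beta probe sets in ES15, at 11.97, lay far from the other arrays of ES15 to ES20, of which the nearest was 12.54; the gap was 0.629 of the range of the 6 arrays. Over 12 sets of values tested in this way, chance flags about 1 in 20.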

How the results depend on the processing

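The alternatives covered the gene summary, the probe sets used, filters, normalization, the variance model, the test and the arrays. Without ES1 to ES12, Hbb-bh1 differed by 1.29 and Hbb-b1 by -1.94, both with the sign turned, Hbb-y by -0.99 and Hba-x by -0.06, and the counts past the threshold were 1 gene (limma), 0 globin genes, 0 globin probe sets and 0 list genes; the setting leaves 2 arrays of 129S2/SvPas. Hbb-b1 passed with at least 4 probe sets per gene and without the dimmer 50% of genes (2.43 in both, limma adjusted p = 0.049 and 0.0421). It also passed after centring each array (2.58, limma adjusted p = 0.0323), with array weights (2.47, limma adjusted p = 0.0146) and without ES13 and ES14 (3.15). A two-sided permutation test of the 2.43 with 100000 resamples gave p = 0.0315, not adjusted. The limma p of the main fit before adjustment was 0.0208, so the permutation p is not set against the adjusted threshold. The Hbb-b1 difference was 0.90 with the mean over all probe sets, 1.22 with their median and 0.88 with the shared probe sets included. Without the dimmer 50% of genes, Hbb-bh1 was not tested and 27 list genes passed, against 45, with fewer genes tested. With array weights Hbb-bh1 differed by -5.27. In the other alternatives, single arrays left out aside, the 3 embryonic genes kept direction and call wherever they were tested.

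Leaving out each array in turn, the difference lay between -3.84 and -2.89 for Hbb-bh1, between -3.74 and -3.04 for Hbb-y, between -2.96 and -2.38 for Hba-x and between 2.11 and 2.84 for Hbb-b1. Hbb-b1 passed in 9 of these, without ES4, ES13, ES14 or any 1 of ES15 to ES20. Between 7854 and 9142 genes, 3 and 4 globin genes, and 39 and 48 list genes passed. No paired analysis was possible because the labels give no number shared by arrays of both strains.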

Other observations

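Within ES1 to ES12, where Hbb-b1 spanned 7.96 to 12.55, the 5 genes with the nearest profiles were chosen after these values were seen, among 16691 genes and over 12 arrays. They were Thy1 (root mean square difference 0.55), the tight junction gene Tjp1 (0.57), the Ikaros family gene Ikzf2 (0.59), Arhgap28 (0.60) and the small GTPase gene Rhoj (0.64), where the median over all genes was 1.48. Thy1, a surface glycoprotein of T cells and other cells, was 11.89 in ES11 and 8.50 in ES4, and lay between 4.98 and 7.32 in ES13 to ES26. Ikzf2 was 9.94 in ES11 and 7.31 in ES4, and 5.99 to 8.05 in ES13 to ES26. Rhoj was 10.14 in ES11 and 7.56 in ES4, and 5.74 to 9.10 in ES13 to ES26. Tjp1 was 9.29 in ES11 and 6.57 in ES4, and higher in ES13 to ES26 (9.58 to 10.68). Arhgap28 was 7.79 in ES11 and 4.63 in ES4, and 7.50 to 10.04 in ES13 to ES26. None of these 5 is a red cell gene of the lists used.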
